A study of Mus musculus with 6 samples.

Results

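The Hox genes of clusters A to D encode the homeodomain transcription factors that mark position along the body and limb axes, and were described here as an expressed code in mouse embryonic fibroblasts. The members were all rows of the count table whose gene symbol is Hox, a cluster letter from a to d and a paralogue number, which gave 39 of 24062 genes. Their number per cluster was 11 in HoxA, 10 in HoxB, 9 in HoxC and 9 in HoxD. RNA was sequenced 4 days after lentivirus infection from embryo-derived fibroblasts of the C57BL/6 strain. In p27OE (3 libraries) the virus overexpressed p27, the product of Cdkn1b, which holds back the cell cycle by blocking cyclin-dependent kinases, and the cells had not yet become senescent at that time. The other group is the EV control (3 libraries), an abbreviation that the labels do not spell out, and they state no treatment for it beyond the shared protocol. The study asked what p27 does to non-senescent cells, and the comparison below asks whether the Hox code was held when it was overexpressed.

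Hox genes lie side by side in each cluster in the order of the body regions in which they act, with low paralogue numbers toward the head and high numbers toward the tail and the limb tips. Genes with the same number in different clusters are paralogues, copies that arose when the clusters were duplicated. Polycomb complexes keep unused members silent and Trithorax proteins keep used members active, so that cultured fibroblasts retain a Hox pattern that reflects the place they came from. Hox proteins bind DNA together with the cofactors of the Pbx, Meis and Pknox families.

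Total counts per library were 44518389, 40338748 and 38533998 in p27OE 1, 2 and 3, against 52098220, 34920728 and 49970661 in EV control 1, 2 and 3. Levels are given as CPM, the count in proportion to the TMM-scaled size of its library. Cdkn1b had 419, 978 and 460.0 CPM in p27OE, against 52.2, 49.9 and 51.2 CPM in EV control. The 11 fibroblast markers summed to between 58523 and 60482 CPM in p27OE, and to between 54573 and 59603 CPM in EV control. The epithelial list summed to 10.2 to 10.3 CPM in p27OE and 11.1 to 12.5 CPM in EV control, the endothelial list to 4.70 to 5.34 and 2.94 to 4.57 CPM, and the macrophage list to 9.28 to 13.96 and 8.41 to 11.6 CPM, in the same order of groups. The neuron and glia list, mostly Tubb3 and Stmn2, summed to 101 to 122 CPM in p27OE and 74.1 to 110 CPM in EV control, with Elavl3 at 0 counts in all 6 libraries. Skeletal muscle markers reached at most 0.527 CPM in p27OE and 0.556 CPM in EV control, with Myf5 at 0 counts throughout. The libraries numbered 1 stood apart in both groups: Xist, the RNA of the silenced X chromosome, was at 477, 9.57 and 0.504 CPM in p27OE 1, 2 and 3, against 317, 5.93 and 0.601 CPM in EV control 1, 2 and 3. Ddx3y, on the Y chromosome, stood at 0.0220, 65.5 and 62.8 CPM in p27OE, against 0.0556, 62.1 and 54.3 CPM in EV control. Nothing in the labels says whether the replicates of a group were separate cultures, and the p-values measure only the spread between these libraries, which between those numbered 2 and 3 may be technical. The titles of EV control, but not of p27OE, also carry a dataset number, so a difference between the groups in handling cannot be told apart from p27.

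The code was broad. Of the 39 members, 31 reached at least 1 CPM in each EV control library, and 31 did so in each p27OE library. In EV control these were 9 of 11 in HoxA, 8 of 10 in HoxB, 6 of 9 in HoxC and 8 of 9 in HoxD. All Hox counts together made up 0.0306% to 0.0407% of a p27OE library and 0.0361% to 0.0435% of an EV control library. Between genes, levels are compared below per kilobase (kb), as CPM divided by the exon length of a gene's coding transcripts. Posterior paralogue groups 9 to 13 held 59.4% ± 2.497 of the summed per-kb level in p27OE and 58.4% ± 1.08 in EV control (SD, n = 3 each). Central groups 4 to 8 held 31.0% ± 2.71 in p27OE and 33.0% ± 0.977 in EV control, and anterior groups 1 to 3 held 9.59% ± 0.718 and 8.56% ± 0.157 (SD, n = 3 each, p27OE first).

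**Figure D1:**
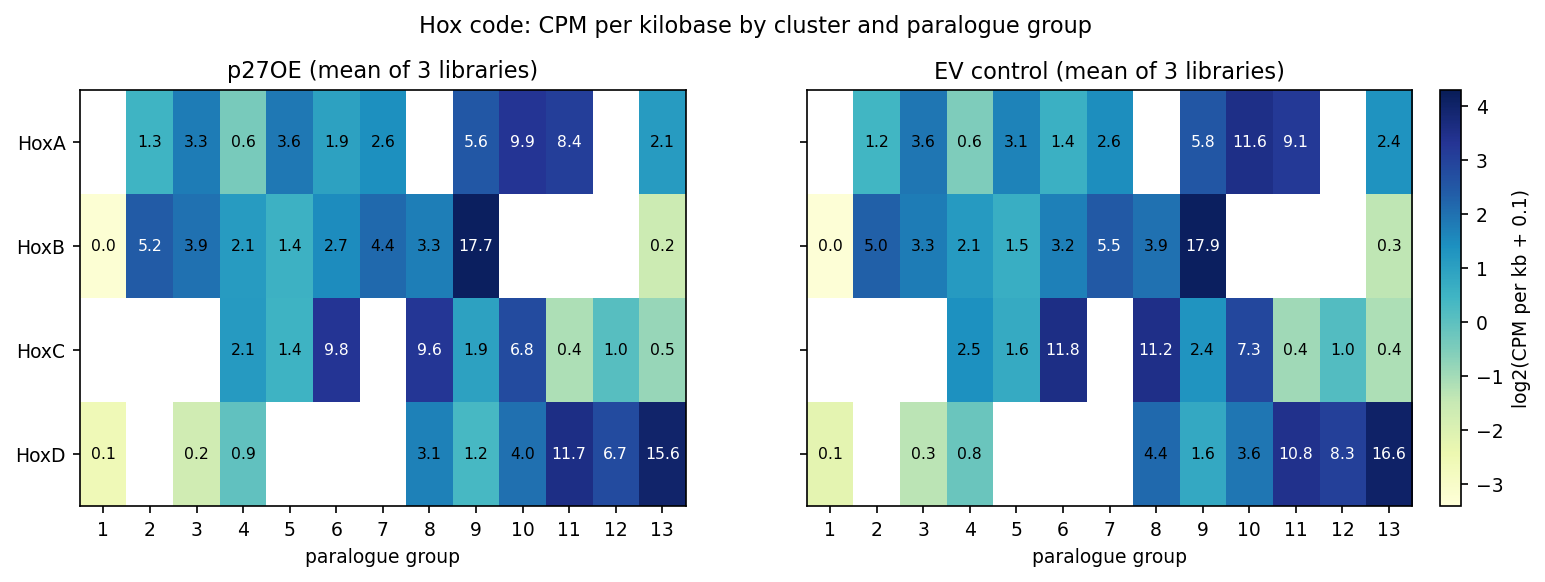
Mean level of each Hox gene in CPM per kb (colour on a log2 scale with 0.1 added, numbers on the linear scale) by cluster (rows) and paralogue group (columns), in p27OE (left) and EV control (right), 3 libraries each; blank cells are not shown or have no gene in the table. Hoxb9 and Hoxd13 are the darkest cells in both panels, at 17.7 and 15.6 in p27OE and at 17.9 and 16.6 in EV control.

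The clusters were close to each other in mean summed per-kb level but differed in which members carried it. HoxD summed to 43.4 ± 1.19 CPM per kb in p27OE and 46.4 ± 2.79 in EV control, HoxB to 40.8 ± 3.44 and 42.7 ± 3.07, HoxA to 40.4 ± 12.6 and 42.4 ± 11.6, and HoxC to 33.3 ± 7.79 and 38.5 ± 5.07 (SD, n = 3 each, p27OE before EV control). The values of single libraries overlapped between clusters in both groups, in part through the libraries numbered 1. In those numbered 2 and 3 of either group, HoxD summed to 43.6 to 49.2 CPM per kb. In the same libraries HoxA summed to 32.3 to 37.2 and HoxC to 28.3 to 36.5. In number 1 HoxA was the highest cluster, at 54.8 in p27OE and 55.7 in EV control. By paralogue group, group 9 had the highest mean sum, with 26.3 ± 0.455 CPM per kb in p27OE and 27.7 ± 1.66 in EV control, next to 20.7 ± 6.90 and 22.5 ± 7.79 for group 10 (SD, n = 3 each, p27OE first). In the libraries numbered 1 group 10 was the higher of both, at 28.6 against 26.8 for group 9 in p27OE 1 and at 31.4 against 26.3 in EV control 1.

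In HoxD the level was concentrated at the posterior end. Hoxd13, the last gene of the cluster and needed for the digits, had 34.6, 39.9 and 41.5 CPM in p27OE 1, 2 and 3, against 40.2, 45.1 and 38.0 CPM in EV control 1, 2 and 3. Hoxd11, which acts with Hoxa11 in the forearm bones, had 12.6, 14.2 and 12.3 CPM in p27OE, against 13.3, 11.95 and 10.7 CPM in EV control. For both genes the groups overlapped. Per kb, Hoxd13 averaged 15.6 ± 1.45 in p27OE and 16.6 ± 1.46 in EV control, and Hoxd11 averaged 11.7 ± 0.913 and 10.8 ± 1.15 (SD, n = 3 each, p27OE first). Hoxd12, their neighbour, averaged 6.71 ± 0.713 CPM per kb in p27OE and 8.28 ± 0.520 in EV control. Below them Hoxd8, Hoxd9 and Hoxd10 averaged between 1.16 and 3.95 CPM per kb in p27OE and between 1.63 and 4.35 in EV control. The anterior end was low: Hoxd1 had at most 0.126 CPM per kb in a p27OE library and 0.169 in an EV control library, Hoxd3 at most 0.336 and 0.340, and Hoxd4 at most 1.13 and 0.905, p27OE first.

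HoxB was led by 1 gene at its posterior end. Hoxb9, a gene of the thoracic region, had 39.7, 48.2 and 48.6 CPM in p27OE, against 39.5, 45.9 and 52.8 CPM in EV control. Its mean per-kb level was the highest of all 39 members in each group, at 17.7 ± 1.94 in p27OE and 17.9 ± 2.59 in EV control (SD, n = 3 each), and its spread overlapped that of Hoxd13. In EV control 1 Hoxb9 stood at 15.3 CPM per kb, below Hoxa10 at 17.2 and Hoxd13 at 16.2. In EV control 2 it stood at 17.8, below Hoxd13 at 18.2. The next in the cluster were Hoxb7, at 5.73, 5.24 and 5.89 CPM in p27OE against 8.32, 6.19 and 6.63 CPM in EV control, and Hoxb2, a hindbrain gene, at 6.81, 9.18 and 9.62 CPM in p27OE against 6.83, 8.87 and 8.49 CPM in EV control. Hoxb7 was lower in each p27OE library than in any EV control library, whereas Hoxb2 overlapped. The remaining genes from Hoxb3 to Hoxb8 averaged between 1.36 and 3.87 CPM per kb in p27OE and between 1.46 and 3.92 in EV control. Both ends of the cluster were off or nearly so. Hoxb13, which lies apart from the rest, had at most 0.583 CPM in p27OE and 0.819 CPM in EV control. Hoxb1 had 1, 0 and 0 counts in p27OE and 0 in each EV control library, where a count of 0 allows up to 0.0556 to 0.0848 CPM (3 counts per library, counting error only).

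In HoxC the level was carried mostly by Hoxc6, Hoxc8 and Hoxc10, with the lower Hoxc9 lying between Hoxc8 and Hoxc10. Hoxc6 had 17.5, 14.9 and 14.2 CPM in p27OE, against 17.7, 18.6 and 19.8 CPM in EV control. Hoxc8, with Hoxc6 a gene of the trunk, had 23.6, 14.04 and 16.0 CPM in p27OE, against 24.4, 18.2 and 20.1 CPM in EV control. Hoxc6 was lower in every p27OE library, while for Hoxc8 p27OE 1 lay among the EV control values. Hoxc10, a gene of the lumbar region and hindlimb, had 19.2, 9.86 and 9.81 CPM in p27OE, against 20.7, 10.0 and 10.8 CPM in EV control, and was high in the libraries numbered 1 of both groups. Per kb these 3 averaged 6.79 to 9.82 in p27OE and 7.25 to 11.8 in EV control, while Hoxc4, Hoxc5 and Hoxc9 averaged 1.35 to 2.13 in p27OE and 1.58 to 2.53 in EV control. The posterior end of this cluster, Hoxc11 to Hoxc13, averaged at most 0.965 CPM per kb in p27OE and 1.01 in EV control.

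HoxA was led by genes 9 to 11, which pattern the limb segments and the posterior trunk. Hoxa10 had 45.7, 25.4 and 22.6 CPM in p27OE, against 54.1, 30.9 and 24.3 CPM in EV control. Hoxa11 had 23.4, 18.3 and 15.9 CPM in p27OE, against 25.7, 19.2 and 17.3 CPM in EV control, and Hoxa9 had 23.0, 14.8 and 16.5 CPM in p27OE, against 20.7, 17.3 and 17.8 CPM in EV control. All 3 were highest in the libraries numbered 1 of each group, and the groups overlapped. Per kb they averaged 5.61 to 9.94 in p27OE and 5.76 to 11.6 in EV control. Hoxa13, the paralogue of Hoxd13, averaged 2.07 ± 0.336 CPM per kb in p27OE and 2.41 ± 0.732 in EV control, and Hoxa2 to Hoxa7 averaged between 0.650 and 3.57 in p27OE and between 0.610 and 3.62 in EV control.

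Per-kb levels depend on the gene model. With the exon length of all transcripts in place of coding ones, the EV control level of Hoxd11 was 2.84 in place of 10.8, that of Hoxb2 2.31 in place of 4.95, that of Hoxa3 1.60 in place of 3.62 and that of Hoxa9 3.33 in place of 5.76. In the GENCODE annotation of GRCm38, 16 of the 39 members share exon bases with another gene, and for 6 of them that gene is in the count table. Strand is not marked by the kit used, and reads of Hoxa11 and Hoxa11os, which overlap over 800 bases (35.0% of the Hoxa11 exons), cannot be told apart. The same holds for Hoxb3 and Hoxb3os over 2250 bases. Hoxd3 and Hoxd4 share 388 exon bases on the same strand, and Hoxc10 and Hoxc5 share 166, so their counts are uncertain too. Hoxd8, Hoxd12, Hoxd13, Hoxb9, Hoxa10, Hoxc6 and Hoxc8 have no such overlap there.

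Membership of the code differed between the groups for 2 genes near the 1 CPM limit. Of the members, 30 reached 1 CPM in all libraries of both groups. Hoxd3, just inside the limit, had 1.32, 0.574 and 0.530 CPM in p27OE, against 1.33, 1.05 and 1.16 CPM in EV control, and so was counted as expressed in EV control alone. Hoxc13 was counted in p27OE alone, with 1.12, 1.33 and 1.01 CPM in p27OE against 0.667, 1.07 and 0.901 CPM in EV control. For both genes the groups overlapped, and the paired edgeR adjusted p was 0.263 for Hoxd3 and 0.422 for Hoxc13. The other gene just inside the limit was Hoxa2, with 3.08, 1.64 and 2.23 CPM in p27OE against 3.33, 1.81 and 1.501 CPM in EV control. Just outside it were Hoxc12, with 1.01, 0.939 and 1.03 CPM in p27OE against 1.43, 0.876 and 0.821 CPM in EV control, and Hoxa4, with 1.19, 0.965 and 0.954 CPM against 0.908, 1.19 and 0.821 CPM in EV control. None of these 3 separated the groups.

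**Figure D2:**
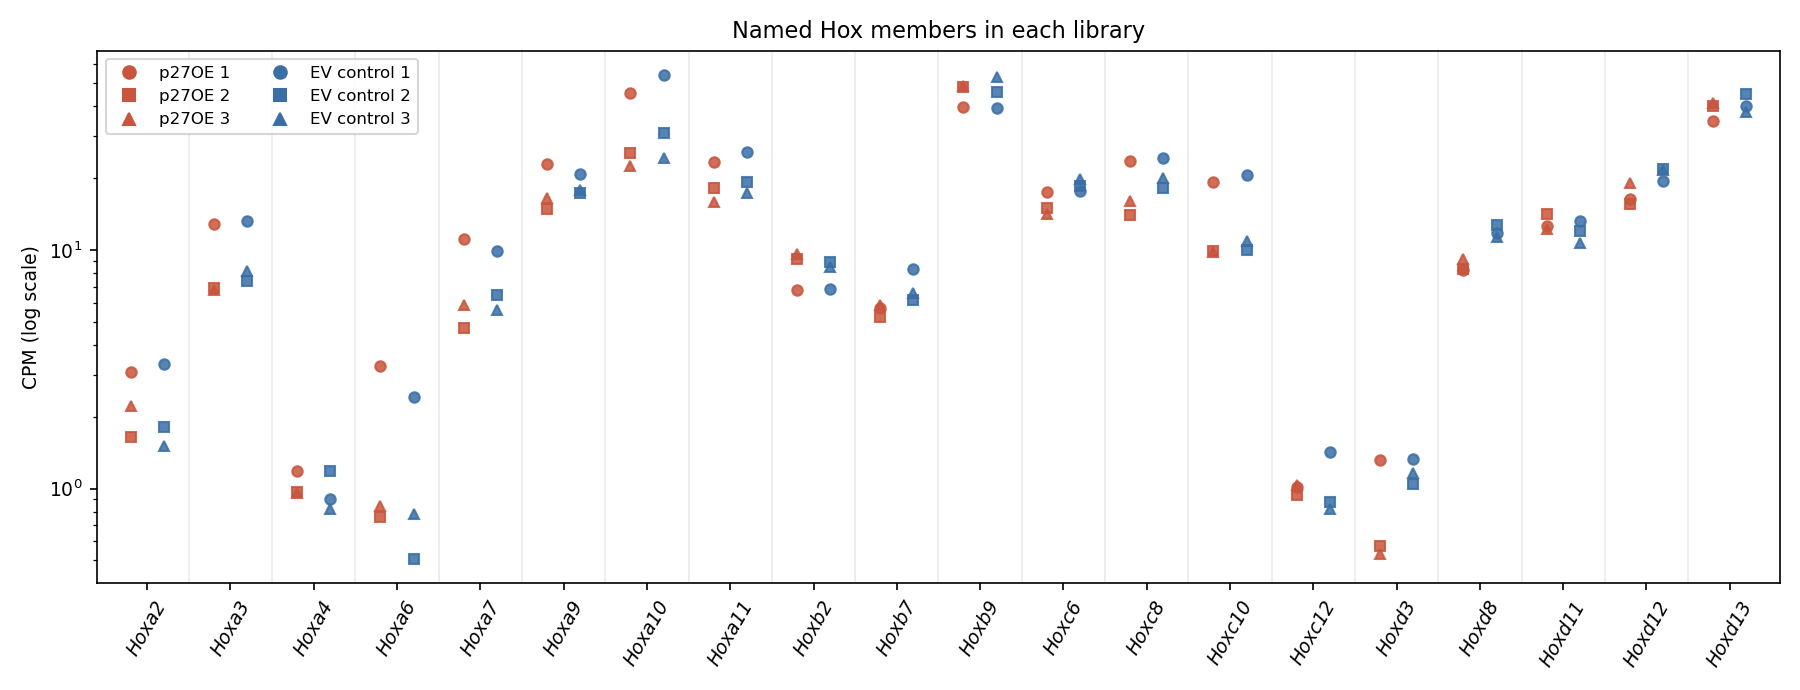
Level of the 20 Hox genes named for their level, their test or their place at the 1 CPM limit, in CPM on a log axis, with 1 point per library (red p27OE, blue EV control; the marker shape gives the library number). Hoxd8 and Hoxd12 show the red points below the blue ones, and Hoxa10, Hoxa6 and Hoxc10 show the circles of number 1 above the rest in both groups.

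The order of the members was held under p27. Over the 39 members the group means per kb had a Spearman correlation of 0.988, and a Pearson correlation of 0.993 on the log2 scale. The points share their libraries and gene models, and much of this likeness comes from the wide range of levels between genes. Between single libraries the Spearman correlation was lowest, at 0.932, between p27OE 1 and EV control 2, and highest, at 0.994, between p27OE 2 and p27OE 3. Library 1 of p27OE was closer to library 1 of EV control, at 0.981, than to p27OE 2 and 3, at 0.946 for each.

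Single genes were tested with edgeR over all 14090 genes with enough counts, of which 37 were Hox genes. Hoxb1 and Hoxd1 were too low to be tested. Without regard to library number, 0 members were called at an adjusted p of 0.05, against a background of 0% of all tested genes. At an unadjusted p under 0.05, 3 members were lower in p27OE (Hoxd8, Hoxd12 and Hoxc6) and 0 higher, which is 8.11% of the members against 7.22% of all genes (4.02% lower and 3.2% higher). DESeq2 without the number called 1 member, Hoxd8, with an adjusted p of 0.0463, and limma-voom without it called 0. Libraries with the same number deviated together from their group means, so the number was also fitted as a block, called the paired fit below. It called 2 members lower in p27OE, Hoxd8 and Hoxd12, against 3.63% of all genes called lower, and 0 members higher, against 3.8% of all genes called higher. At an unadjusted p under 0.05 the paired fit had 9 members lower (24.3%) and 0 higher, against 23.9% of all genes (12% lower and 11.9% higher). Cdkn1b, the overexpressed gene itself, was called in neither edgeR fit. Its paired log2 fold change was 3.48 (edgeR adjusted p 0.0873), and without the block its adjusted p was 0.1804. A gene that was not called can thus still differ widely between the groups.

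Hoxd8, a gene of the middle of its cluster that acts in the trunk, had 8.22, 8.30 and 9.17 CPM in p27OE 1, 2 and 3, against 11.8, 12.7 and 11.4 CPM in EV control 1, 2 and 3. Each p27OE library lay below each EV control library, and each below its partner of the same number. The paired log2 fold change was -0.48 ± 0.11 (SE, n = 3 pairs, edgeR adjusted p 0.0170), and without the block it had the same size with an adjusted p of 0.651. In bulk RNA, fewer cells that express a gene and less RNA of it per cell cannot be told apart. Hoxd12 had 16.3, 15.6 and 19.0 CPM in p27OE, against 19.5, 21.9 and 21.6 CPM in EV control, again with no overlap. Its paired log2 fold change was -0.30 ± 0.09 (SE, n = 3 pairs, edgeR adjusted p 0.0484), and its adjusted p without the block was 0.683. The call of Hoxd12 was lost in the paired fit without the libraries numbered 2 (adjusted p 0.256) or 3 (0.118), while Hoxd8 stayed called without any number, at adjusted p between 0.0220 and 0.0496. With all libraries and the block, the call of Hoxd12 was also lost in DESeq2 (adjusted p 0.114), in limma-voom (0.0706), under RLE scaling in edgeR (0.0515) and with a filter of at least 1 CPM in 3 libraries (0.0520), and that of Hoxd8 in none of these 4. Without the libraries numbered 1, the paired fit called 5 of 37 members lower (13.5%, against 6.04% of all genes), which adds Hoxc6, Hoxc8 and Hoxd9, and 0 higher (against 6.36%). Without those numbered 2 it called Hoxd8 alone lower (against 2.97% of all genes) and 0 higher (against 3.51%), and without those numbered 3 Hoxd8 alone lower (against 0.746%) and 0 higher (against 1.58%). The third smallest paired p belonged to Hoxa10, with a log2 fold change of -0.21 ± 0.07 and an adjusted p of 0.0788, which did not pass.

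Between Hoxd8 and Hoxd12 on chromosome 2 lie Hoxd9, Hoxd10 and Hoxd11, and neither direction nor size was shared along that stretch. In the paired fit the log2 fold change was -0.54 ± 0.20 for Hoxd9 (adjusted p 0.117), 0.13 ± 0.12 for Hoxd10 (0.574), 0.12 ± 0.10 for Hoxd11 (0.515) and -0.09 ± 0.08 for Hoxd13 (0.514; SE, n = 3 pairs, edgeR). Hoxd9 had 3.82, 1.96 and 1.67 CPM in p27OE, against 4.00, 3.48 and 2.98 CPM in EV control. It was lower in each pair, but p27OE 1 lay among the EV control values.

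The sequences just before the start sites are given for the called genes Hoxd8 and Hoxd12, for Hoxd13, the highest of HoxD per kb, whose groups overlapped, and for Hoxa10, the member with the smallest p between library numbers. Each is the 250 bases that end before the start in RefSeq's table for GRCm38.p6, 5′ to 3′ on the gene's strand, with CG dinucleotides in capitals. They lie at chr2:74704365-74704614 (Hoxd8, plus strand), chr2:74674763-74675012 (Hoxd12, plus), chr2:74667975-74668224 (Hoxd13, plus) and chr6:52240855-52241104 (Hoxa10, minus). For Hoxd13 the GENCODE gene starts further downstream, at 74668310, and the letters after the RefSeq start matched no GENCODE transcript of it. Its window may thus not end at the start used in these cells.
Hoxd8: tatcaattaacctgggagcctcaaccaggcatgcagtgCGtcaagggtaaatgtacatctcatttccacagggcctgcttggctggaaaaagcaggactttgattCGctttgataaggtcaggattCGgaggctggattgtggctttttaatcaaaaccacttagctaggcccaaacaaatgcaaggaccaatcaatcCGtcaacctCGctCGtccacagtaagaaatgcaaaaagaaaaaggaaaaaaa
Hoxd12: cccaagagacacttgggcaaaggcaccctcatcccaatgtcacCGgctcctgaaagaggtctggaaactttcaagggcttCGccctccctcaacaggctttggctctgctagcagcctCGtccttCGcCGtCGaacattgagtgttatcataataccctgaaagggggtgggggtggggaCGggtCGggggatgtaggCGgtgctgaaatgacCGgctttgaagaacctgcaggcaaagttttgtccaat
Hoxd13: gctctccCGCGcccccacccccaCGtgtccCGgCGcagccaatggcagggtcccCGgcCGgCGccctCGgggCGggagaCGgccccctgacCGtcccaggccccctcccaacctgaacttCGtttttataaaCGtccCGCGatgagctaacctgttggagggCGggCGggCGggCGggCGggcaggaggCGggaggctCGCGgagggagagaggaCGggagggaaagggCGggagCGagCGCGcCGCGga
Hoxa10: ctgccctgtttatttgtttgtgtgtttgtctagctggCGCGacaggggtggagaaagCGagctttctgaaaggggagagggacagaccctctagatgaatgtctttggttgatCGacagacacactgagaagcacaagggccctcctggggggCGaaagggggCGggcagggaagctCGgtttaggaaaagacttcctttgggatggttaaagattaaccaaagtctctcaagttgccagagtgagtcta
These windows held 6 CG dinucleotides before Hoxd8, 10 before Hoxd12, 31 before Hoxd13 and 7 before Hoxa10. The table matched 22 of the 39 members by symbol, whose median was 12, against 6 over all 27018 promoters in it. On either strand, the letters TGATNNAT, bound by Hox and Pbx proteins together, were found in 3 of the 22 windows (13.6%, against 7.89% of all promoters). The letters TTTATNG, preferred by posterior Hox proteins, were in 2 of them (9.09%, against 10.2%), and TATAAA, the TATA box, was in 3 (13.6%, against 12.98%). Matches of TTTATNG and TATAAA can share bases. Of the 4 windows printed, none held either Hox motif, and the one before Hoxd13 held TATAAA, with 2 overlapping matches on opposite strands.

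Most members leaned slightly lower in p27OE. In the paired fit 26 of the 37 tested members had a log2 fold change below 0 (70.3%, against 50.4% of all tested genes), as did 26 without the block (against 50.3%). The paired median was -0.09, against -0.00 over all genes. Members were lower in all 3 pairs in 14 cases (37.8%, against 23.7% of all genes) and higher in all 3 in 4 cases (10.8%, against 21.8%). The groups did not overlap for 4 members, Hoxb7, Hoxc6, Hoxd8 and Hoxd12, all of them lower (10.8%, against 8.28% of all genes), and for 0 members higher, against 6.61% of all genes. Neighbouring Hox genes share control regions, so these counts are a description of the set. Paired log2 fold changes of single members ran from -0.60 for Hoxd3 to 0.41 for Hoxc13, both among the lowest tested genes of the set and neither called.

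**Figure D3:**
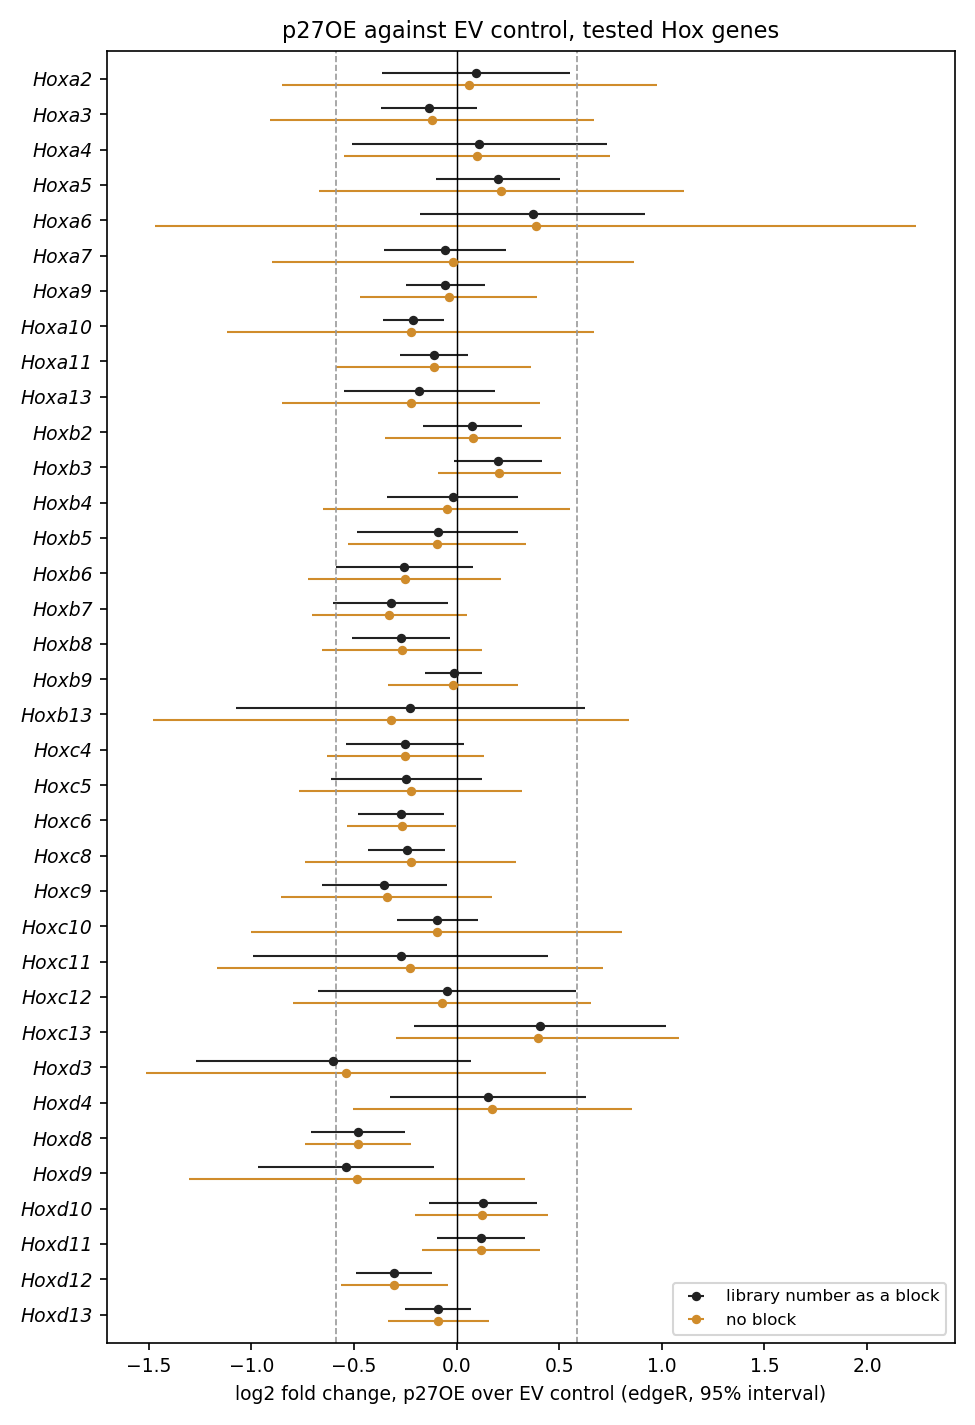
Log2 fold change of p27OE over EV control for tested Hox genes with the 95% interval from edgeR, with the library number as a block (black) and without it (orange); dashed lines mark a 1.5-fold change. The intervals of Hoxd8, Hoxd12 and Hoxc6 lie below 0 in both fits, that of Hoxc6 only just so without the block. Those of Hoxa6 and Hoxd3 are among the widest.

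The intervals show how firmly the code was held. A 95% interval inside a 1.5-fold change in either direction was found for 11 members without the block (29.7%, against 60.3% of all genes) and for 23 members in the paired fit (62.2%, against 75.8%). Inside a 2-fold change lay 28 members without the block (75.7%, against 79.7%) and 34 in the paired fit (91.9%, against 88.6%). For the leading genes per kb, in the order of their EV control level, the paired intervals of the log2 fold change were -0.15 to 0.13 for Hoxb9, -0.25 to 0.07 for Hoxd13, -0.48 to -0.06 for Hoxc6, -0.36 to -0.06 for Hoxa10, -0.43 to -0.05 for Hoxc8, -0.10 to 0.33 for Hoxd11 and -0.28 to 0.06 for Hoxa11. Those of Hoxc6, Hoxa10 and Hoxc8 lay below 0, though none of these 3 passed the adjusted threshold with all libraries. For Hoxd3 the interval was wide, at -1.27 to 0.07, and included a fall of more than 2-fold. The median distance from estimate to bound was 0.30 over the tested members and 0.18 over all tested genes.

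By cluster, HoxC was lower in most of its members: 8 of 9 had a paired log2 fold change below 0, with a median of -0.24, against 7 of 9 (median -0.09) in HoxB, 6 of 11 (-0.05) in HoxA and 5 of 8 (-0.20) in HoxD. No HoxC gene was called in either fit with all libraries. The summed level of HoxC was 80.7, 53.3 and 55.6 CPM in p27OE 1, 2 and 3, against 84.2, 66.0 and 69.0 CPM in EV control 1, 2 and 3. Its ratio of p27OE to EV control within a number was 0.959, 0.807 and 0.806. For HoxD the sums were 87.2, 90.5 and 92.6 CPM in p27OE against 98.3, 106 and 94.1 CPM in EV control, with ratios of 0.886, 0.854 and 0.984. For HoxB they were 90.1, 94.5 and 106 CPM in p27OE against 92.5, 98.6 and 108 CPM in EV control, with ratios of 0.975, 0.958 and 0.985. For HoxA, whose sums are given below, the ratios were 0.965, 0.855 and 0.973. Each cluster sum in CPM was thus lower in p27OE in each pair. The groups overlapped for HoxA, HoxB and HoxC and did not for HoxD. Per kb the sum of HoxD was slightly higher in p27OE in pair 3 (ratio 1.01), and its groups overlapped. With 3 libraries against 3, an exact permutation test cannot give a p below 0.1, so these sums were not tested.

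**Figure D4:**
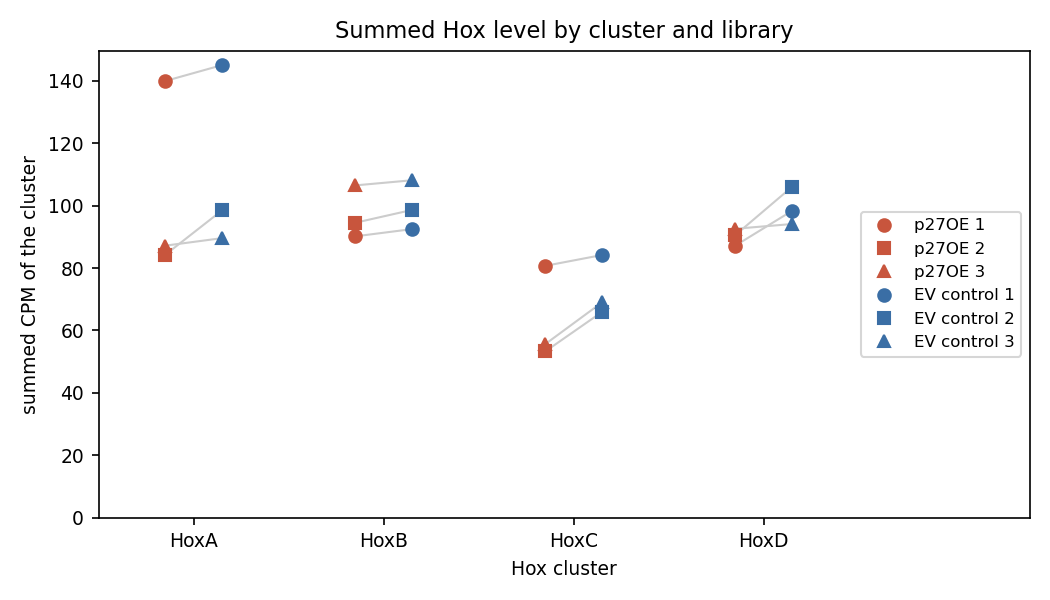
Summed level of each Hox cluster in CPM in each library (red p27OE, blue EV control; marker shapes give the library number and lines join libraries of the same number). In HoxA both circles of number 1 stand at 139.9 and 145.0 CPM, above the 84.2 to 98.5 CPM of the others.

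HoxA varied with library number. Its sum was 139.9, 84.2 and 87.2 CPM in p27OE 1, 2 and 3, against 145.0, 98.5 and 89.6 CPM in EV control 1, 2 and 3, so that the libraries numbered 1 were the highest in both groups. A test of the number in the paired edgeR fit called 13 of the 37 tested members (35.1%), against a background of 31.2% of all tested genes. By cluster these were 8 of 11 in HoxA, 2 of 9 in HoxB, 2 of 9 in HoxC and 1 of 8 in HoxD. In 11 of the 13, number 1 was highest in both groups (29.7% of the members, against 15% of all genes), and in 1, Hoxb9, it was lowest in both (2.7%, against 15.8%). The remaining gene was Hoxb4. Without the libraries numbered 1, edgeR called 0 members, against 0.107% of all genes, with 3 members and 5.44% of all genes at an unadjusted p under 0.05, so the calls rest on that pair of libraries. With all libraries DESeq2 called 10 members and limma-voom 12.

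The smallest p of the number term belonged to Hoxa10 (adjusted p 7.47e-07), which in library 1 was 1.90 times the mean of the other two p27OE libraries and 1.96 times that of the other two EV control libraries. Hoxc10, its paralogue, followed with 1.95 times in p27OE and 1.98 times in EV control (adjusted p 1.04e-05). The next was Hoxa6, with 3.25, 0.757 and 0.848 CPM in p27OE, against 2.41, 0.509 and 0.781 CPM in EV control (adjusted p 0.000129). It is low, and the gap between number 1 and the others was the widest of the called members, at 4.05 times in p27OE and 3.73 times in EV control. Hoxa3, a gene of the throat and neck region, had 12.9, 6.94 and 6.79 CPM in p27OE, against 13.2, 7.43 and 8.19 CPM in EV control (adjusted p 0.000208). Hoxa7 had 11.1, 4.70 and 5.89 CPM in p27OE, against 9.93, 6.44 and 5.63 CPM in EV control (adjusted p 0.000770). For each of these genes both libraries numbered 1 lay above all 4 others. In HoxA, Hoxa4 and Hoxa13 were among the genes not called. Hoxa13, at an adjusted p of 0.114, was lowest in number 1 of EV control, with 4.68, 4.59 and 6.07 CPM in p27OE against 3.93, 7.38 and 6.61 CPM in EV control.

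**Figure D5:**
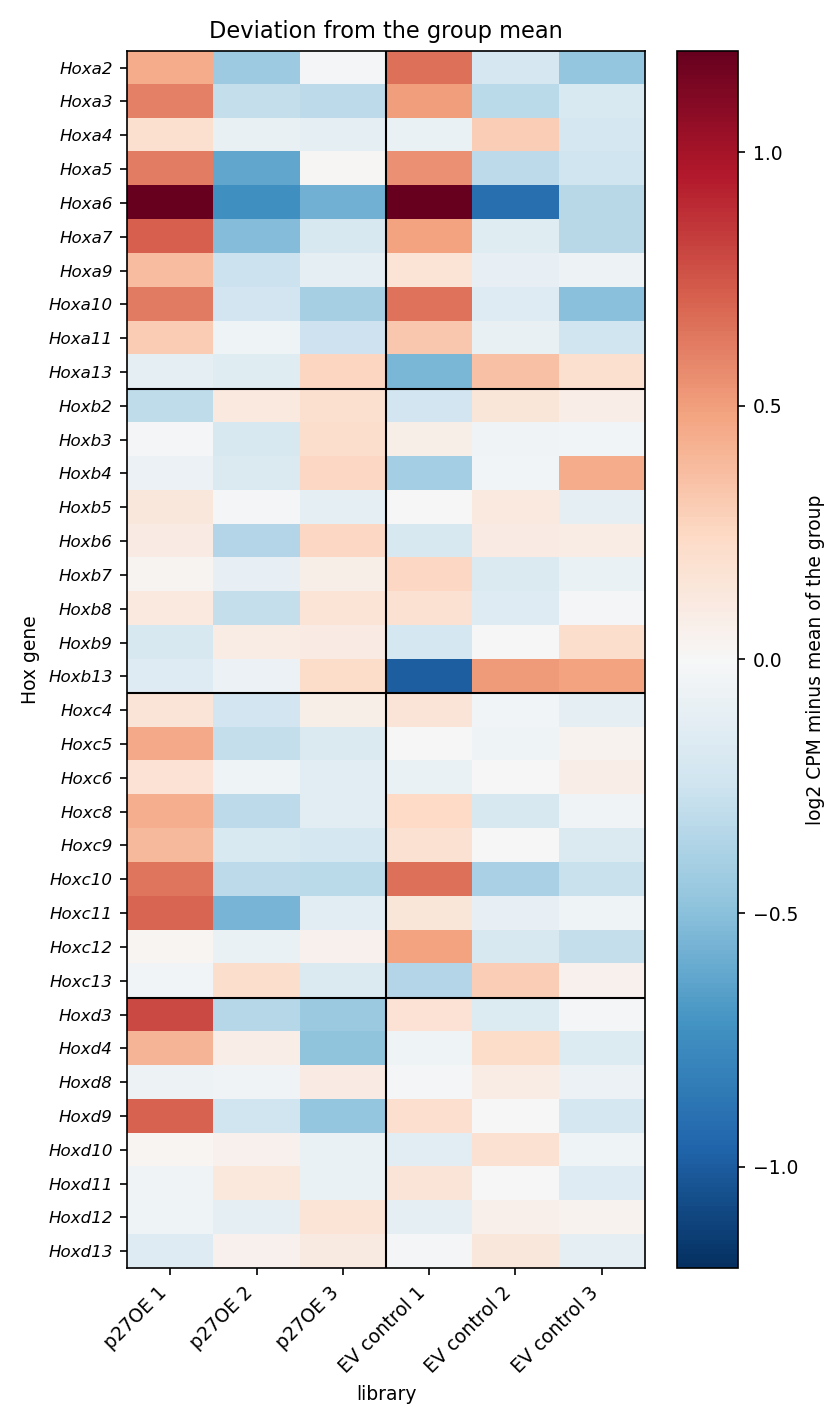
Deviation of tested Hox genes from the mean of its own group, in log2 CPM (red above, blue below), for the 3 p27OE libraries (left) and the 3 EV control libraries (right); horizontal lines part the clusters. The columns numbered 1 are red for most of HoxA in both groups, with Hoxa6 the strongest, and blue for Hoxb9.

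Other genes moved with library number alongside the Hox genes. Pdgfra, a receptor of fibroblasts, was at 233, 106 and 84.9 CPM in p27OE, against 304, 144 and 132 CPM in EV control, and Lum, a matrix proteoglycan, at 101, 39.1 and 24.5 CPM in p27OE, against 122, 41.9 and 30.5 CPM in EV control. Xist was high and Ddx3y near 0 in the same libraries, as given above. Of the 5 genes in the sex list all 5 were called by the number term, as were 6 of 11 fibroblast markers (54.5%, against 31.2% of all genes). Of these 6 markers Thy1 was lowest in number 1, at 597, 943 and 913 CPM in p27OE, against 539, 817 and 809 CPM in EV control. The other called fibroblast markers were highest in number 1 of both groups. Markers also moved between the groups, alongside the lower Hox values. The paired fit called 3 of the 11 fibroblast markers lower in p27OE (27.3%, against 3.63% of all genes) and 0 higher. These were Pdgfra (log2 -0.48 ± 0.06, SE, n = 3 pairs, edgeR adjusted p 0.000575), Lum (-0.23 ± 0.06, adjusted p 0.0430) and Twist1 (-0.23 ± 0.06, adjusted p 0.0483). The list did not move in one direction. Thy1 (0.176, adjusted p 0.0684), Col1a1 (0.149, adjusted p 0.1997) and Col1a2 (0.0625, adjusted p 0.6198) leaned higher in p27OE in the same fit without passing. Col3a1, Dcn, Vim, Prrx1 and Pdgfrb had fold changes below 0, that of Pdgfrb only just, and were not called either. Called higher in p27OE were Tubb3 (0.63 ± 0.08, adjusted p 0.00158), 1 of 6 tested neuron and glia markers, Emcn (0.93 ± 0.24, adjusted p 0.0354), 1 of 3 tested endothelial markers, and Xist (0.58 ± 0.09, adjusted p 0.00318). Xist was lower in p27OE in pair 3, at 0.504 against 0.601 CPM. Its groups overlapped, and without the block its edgeR adjusted p was 0.984. Of the epithelial, macrophage and skeletal muscle markers none was called in this fit. The part of any of these differences in the Hox values was not tested.

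Among the Hox cofactors, all 9 listed genes were tested, and the paired fit called 2 lower (22.2%, against 3.63% of all genes) and 0 higher in p27OE. Meis1 had 31.1, 19.8 and 23.0 CPM in p27OE, against 38.2, 25.3 and 27.8 CPM in EV control (log2 -0.31 ± 0.07, SE, n = 3 pairs, edgeR adjusted p 0.0195). Pbx3 had 37.0, 21.9 and 24.2 CPM in p27OE, against 45.3, 27.9 and 28.4 CPM in EV control (-0.29 ± 0.07, adjusted p 0.0231). Each was lower in each pair, but the groups overlapped because the libraries numbered 1 were high, and without the block the adjusted p was 0.816 for Meis1 and 0.875 for Pbx3. Meis2, the third by p, did not pass (-0.21 ± 0.07, adjusted p 0.0681). The number term called 6 of the 9 (66.7%, against 31.2% of all genes), with Meis1, Pbx3 and Meis2 among them.

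Of 28 Polycomb genes, which silence Hox genes, the paired fit called 0 higher and 1 lower (3.57%, against 3.63% of all genes), Cbx6, with 181, 145 and 138 CPM in p27OE against 206, 163 and 159.9 CPM in EV control (log2 -0.19 ± 0.05, SE, n = 3 pairs, edgeR adjusted p 0.0431). Phc1 (-0.24 ± 0.08, adjusted p 0.0671) and Pcgf2 (-0.22 ± 0.07, adjusted p 0.0696) did not pass. Of 15 Trithorax genes and H3K27 demethylases it called 0 lower and 1 higher (6.67%, against 3.8% of all genes), Kmt2a, the methyltransferase that keeps Hox genes active, with 71.4, 53.3 and 55.0 CPM in p27OE against 43.3, 44.0 and 48.2 CPM in EV control (0.40 ± 0.10, adjusted p 0.0464). Kmt2a was the only one of these 2 called genes whose groups did not overlap. Dot1l (0.16 ± 0.06, adjusted p 0.102) and Dpy30 (-0.24 ± 0.09, adjusted p 0.103) came next and did not pass. Without the block, edgeR called 0 genes of either list.

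Of 21 retinoic acid, Cdx and posterior signal genes, 14 were tested, and the paired fit called 1 lower and 1 higher (7.14% each, against 3.63% and 3.8% of all genes). Crabp1, which binds retinoic acid in the cytoplasm, had 274, 333 and 316 CPM in p27OE, against 447, 548 and 453 CPM in EV control (log2 -0.65 ± 0.06, SE, n = 3 pairs, edgeR adjusted p 4.85e-05), with no overlap. It was the only gene of the list called lower. Aldh1a1, an enzyme that makes retinoic acid, was the only one called higher, with 2.44, 1.38 and 1.78 CPM in p27OE against 1.69, 0.537 and 0.761 CPM in EV control (0.97 ± 0.27, adjusted p 0.0414). Its groups overlapped, and Rxra, a partner of the retinoic acid receptors, did not pass (-0.21 ± 0.06, adjusted p 0.0551). Without the block the adjusted p was 0.642 for Crabp1 and 0.740 for Aldh1a1.

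Of 46 other transcription factors that mark position, 41 were tested, and the paired fit called 3 lower (7.32%, against 3.63% of all genes) and 0 higher. Pax1, a gene of the sclerotome, had 10.8, 4.28 and 6.26 CPM in p27OE, against 13.7, 7.40 and 8.59 CPM in EV control (log2 -0.51 ± 0.12, SE, n = 3 pairs, edgeR adjusted p 0.0216). Msx1, a gene of the limb bud mesenchyme, had 3.38, 5.66 and 4.51 CPM in p27OE, against 4.19, 8.76 and 6.55 CPM in EV control (-0.50 ± 0.14, adjusted p 0.0432). For both genes the groups overlapped, and without the block edgeR called 0 of the list. The number term called 22 of the 41 (53.7%, against 31.2% of all genes), with number 1 high for Pax1 and low for Msx1.

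Of 22 noncoding RNAs and neighbouring genes of the clusters, 13 were in the table and 6 were tested, and none was called in either fit. The closest were Evx2, which lies beside Hoxd13, with 0.549, 0.104 and 0.345 CPM in p27OE against 0.685, 0.452 and 0.520 CPM in EV control (paired log2 -0.77 ± 0.43, SE, n = 3 pairs, edgeR adjusted p 0.297), Mir196a-1 (-0.33 ± 0.25, adjusted p 0.447) and Hottip (-0.52 ± 0.39, adjusted p 0.455). All 3 stood at or below 1.72 CPM in each library, and at such counts small differences were not detectable.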

How the data were processed

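The authors deposited raw read counts, whole numbers without normalization, for 24062 gene symbols in 6 libraries. The libraries came from total RNA and a TruSeq RNA kit, per the labels' protocols. The submitters' processing notes name Subread, featureCounts 1.4.6, Bowtie2 2.2.6, TopHat2 2.0.14 and genome build mm10. The sources used here do not give the annotation or the treatment of multiply mapped reads. Titles gave the groups.

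After filterByExpr (total of at least 15, count of at least 10) 14090 genes remained, with TMM scaling. The test was edgeR's quasi-likelihood F test (version 4.0.16, R 4.3.3), two-sided, with Benjamini-Hochberg adjustment over these genes and a threshold of 0.05, run both without a block and with the library number as a block. The numbers were taken to pair the libraries after a check over the tested genes: deviations from the group means correlated at 0.772, 0.416 and 0.535 between the libraries numbered 1, 2 and 3. Libraries numbered 2 and 3 also correlated across numbers, at 0.391 and 0.408. CPM uses the scaled library sizes, and kb the union of coding exons in the GENCODE annotation of GRCm38. The SE was taken from the F statistic. Alternatives were DESeq2 1.42.0, limma-voom (limma 3.58.1), RLE and upper-quartile scaling, other filters and lengths, and leaving out libraries. The fits were tested on simulated data.

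The members and lists were chosen with earlier results of these data known. Named were the 3 members of each cluster with the highest EV control level per kb, each called member, the 3 with the smallest paired p, the 5 with the smallest p of the number term, those at the 1 CPM limit, and the 3 of each list with the smallest paired p. Hoxa13, Hoxb13, Hoxc13, Hoxd9, Hoxd10, Pdgfra, Lum, Twist1, Thy1, Col1a1, Col1a2, Tubb3, Emcn, Xist and Ddx3y were named after their values were seen. Some members of the set and the lists are counted but not reported singly here.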

Additional observations from a re-analysis of the deposited data

How the results depend on the processing

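Without the replicate block edgeR called 0 Hox genes and 0 genes in all. With the replicate block it called 2 and 1047 (edgeR), 1 and 807 (DESeq2), 1 and 829 (limma-voom), 1 and 1042 (RLE scaling), 2 and 1219 (upper-quartile scaling), 2 and 1416 (no filter) and 1 and 1018 (at least 1 CPM in 3 libraries), the last 2 settings being chosen after seeing the data. DESeq2 without the block called 1 Hox gene and 82 genes, and edgeR with no filter called 1 gene in all. The block fit without the libraries numbered 1, 2 or 3 called 5, 1 and 1 Hox genes and 1741, 928 and 330 genes. Leaving out single libraries gave 0 Hox genes and 0 to 1 genes. Hox genes held within a 1.5-fold change, 11 in edgeR without the block, were 23, 18, 23, 24, 23, 25 and 23 in the first block settings in the same order, 18, 22 and 17 without the libraries of a number, and 4 to 11 without single libraries. The cause was not tested. The number term called 13 Hox genes, 10 to 14 under other tools, scalings and filters, 10 to 16 without single libraries, and 0 without both libraries numbered 1. With all-transcript lengths, paralogue groups 9 to 13 held 61.1% of the EV control level in place of 58.4%. Single genes turned direction only with libraries left out. Without single libraries log2 fold changes ran from -0.60 to 0.18 for Hoxa10, -0.28 to 0.073 for Hoxa11, -0.20 to 0.49 for Hoxa2, -0.49 to 0.18 for Hoxa3, -0.011 to 0.26 for Hoxa4, -0.64 to 1.32 for Hoxa6, -0.47 to 0.27 for Hoxa7, -0.25 to 0.090 for Hoxa9, -0.025 to 0.22 for Hoxb2, -0.12 to 0.094 for Hoxb9, -0.50 to 0.31 for Hoxc10 and -0.22 to 0.23 for Hoxc12. In the block fit they turned to 0.22 for Hoxc12 and -0.042 for Hoxa4 without number 1, to 0.029 for Hoxa9 and 0.12 for Hoxa7 without number 2, and to 0.040 for Hoxb9 and -0.13 for Hoxa2 without number 3. Hoxd8, Hoxd12, Hoxc6 and Hoxc8 kept their sign in every setting run. Low counts limited Hoxb1, Hoxd1, Hoxd3 and Hoxb13.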
